A study of Rattus norvegicus with 72 samples.

Results

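Interferon-stimulated genes were followed here through 9 rat genes: Irf7, Irf1, Isg15, Usp18, Ifit2, Ifit3, Oas1a, Mx1 and Mx2. They were taken as every probe set of the deposited expression table whose platform annotation gives a single gene symbol equal to one of these names, which found 11 of the 31042 probe sets, for 9 of the 14217 genes with such a probe set. Ifit2 and Mx2 each have 2 probe sets, and the brighter one stands for the gene unless the dimmer is named. The names were put together with the difference between lactating and pregnant mammary gland known, so that difference is described below without a test. The text that accompanied the names shows no more than that, so liver and adipose were tested gene by gene, but the counts there are not independent support for the group.

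The arrays measured RNA of mammary gland, liver and adipose tissue from pregnant and from lactating rats (Rattus norvegicus), each kept at standard gravity or in hypergravity, which makes 12 groups of 5 arrays. By the codes in the sample titles the 3 tissues came from the same 20 rats, 5 for each stage and gravity. A separate set of 12 arrays holds mammary gland of pregnant rats in microgravity (titles starting FLT), of its flight controls (FDS) and of vivarium controls (VIV), with 4 arrays for each, and was compared only within itself. Strain, age, the day of pregnancy or lactation and the gravity load are not given in the sources used here. Nothing in the labels marks a transgene, a pooled animal or a drug treatment.

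Interferons are secreted proteins that cells make when they sense viral nucleic acid or damage. Type I and type III interferons bind receptors that act through the kinases Jak1 and Tyk2 on a factor that includes Irf9 and binds interferon-stimulated response elements in the promoters of many genes. Interferon gamma acts through Jak1 and Jak2 on a different element, the gamma-activated site. Of the members, Irf7 and Irf1 are transcription factors of the pathway. Isg15 is a small ubiquitin-like protein, and Usp18 removes it from its targets and restrains the receptor. Ifit2, Ifit3, Oas1a, Mx1 and Mx2 are antiviral effectors.

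Measurements are log2 expression values from RMA, a method that corrects the background, normalises and summarises the probes of a probe set. A difference of 1 is 2-fold on the linear scale, and a level of 1 probe set is never set against that of another below. Array medians ran from 4.32 to 4.56 over the 60 arrays and from 4.87 to 5.02 over the microgravity set, and the number of arrays limits the precision. The arrays titled M210H and A210H were left out: M210H had mean log2 values of 3.11 for milk protein genes and 10.5 for adipocyte genes, and A210H had 13.07 and 8.02, the reverse of their titles. Irf7 went with the markers, at 7.58 in M210H and 4.94 in A210H. Markers of another tissue were raised on 11 further arrays, most on A48S and A217H (skeletal muscle, 12.52 and 11.25 against a tissue median of 3.52) and M56H (hepatocyte, 10.78 against 4.04). Calls that change without these arrays are given with that value.

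The promoters of the 5 members that have one in the table are shown: Irf7, Ifit3, Oas1a and Mx1 were lower in lactating liver at both gravities, and Irf1 was not called there. Each is 300 bases, 250 before and 50 after the annotated start, 5′ to 3′ on the gene's strand, from RefSeq on build GRCr8: Irf7 at chr1:205799974-205800273 (minus strand), Ifit3 at chr1:241527076-241527375 (plus), Oas1a at chr12:41330216-41330515 (plus), Mx1 at chr11:50294557-50294856 (minus) and Irf1 at chr10:38417685-38417984 (plus). Capitals mark matches on either strand to the interferon-stimulated response element core GAAANNGAAA or to the gamma-activated site TTCNNNGAA.
Irf7: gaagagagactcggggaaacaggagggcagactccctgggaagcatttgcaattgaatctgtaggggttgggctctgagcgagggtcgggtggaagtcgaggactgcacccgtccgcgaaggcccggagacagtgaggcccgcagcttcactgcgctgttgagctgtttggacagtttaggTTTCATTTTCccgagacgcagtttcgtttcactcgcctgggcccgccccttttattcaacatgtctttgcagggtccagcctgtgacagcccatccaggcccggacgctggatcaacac
Ifit3: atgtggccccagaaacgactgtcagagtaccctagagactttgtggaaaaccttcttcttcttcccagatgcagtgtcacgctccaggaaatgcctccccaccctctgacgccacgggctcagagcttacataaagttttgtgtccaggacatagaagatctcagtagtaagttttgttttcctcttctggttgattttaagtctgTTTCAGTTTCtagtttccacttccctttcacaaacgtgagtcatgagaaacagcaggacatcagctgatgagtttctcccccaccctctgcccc
Oas1a: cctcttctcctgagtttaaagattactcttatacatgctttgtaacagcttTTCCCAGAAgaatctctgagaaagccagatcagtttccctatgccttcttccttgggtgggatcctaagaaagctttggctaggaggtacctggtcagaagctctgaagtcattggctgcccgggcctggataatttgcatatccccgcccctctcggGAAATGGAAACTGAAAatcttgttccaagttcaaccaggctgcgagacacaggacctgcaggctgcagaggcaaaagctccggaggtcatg
Mx1: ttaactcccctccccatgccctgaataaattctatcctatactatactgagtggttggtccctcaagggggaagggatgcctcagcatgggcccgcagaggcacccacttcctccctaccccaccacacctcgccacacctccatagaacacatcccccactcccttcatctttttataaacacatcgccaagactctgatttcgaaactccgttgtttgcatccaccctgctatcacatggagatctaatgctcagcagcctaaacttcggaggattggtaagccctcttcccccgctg
Irf1: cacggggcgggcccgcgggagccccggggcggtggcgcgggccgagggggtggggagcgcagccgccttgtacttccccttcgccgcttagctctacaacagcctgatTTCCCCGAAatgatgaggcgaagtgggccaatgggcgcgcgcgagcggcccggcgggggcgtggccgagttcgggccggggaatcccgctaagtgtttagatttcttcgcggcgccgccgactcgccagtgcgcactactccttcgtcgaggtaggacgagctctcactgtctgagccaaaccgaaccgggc
The response element core stood 69 bases before the start in Irf7, 44 before it in Ifit3, and 41 and 35 before it in Oas1a, where the matches overlap. The gamma-activated site stood 142 bases before the start in Irf1 and 199 before it in Oas1a. Of the 5, 3 held the response element core and 2 the gamma-activated site, and the window shown for Mx1 held neither. The whole Irf7 window lies inside the span of its gene (205796956 to 205800543). Sequence before the outer end of that span was not searched. The starts used for Oas1a and Mx1 also lie inside their gene spans (41330423 to 41341130 and 50269056 to 50294699). Over all 33469 promoters of this length, 3.92% held the core and 8.87% the gamma-activated site. A match is a description of letters in this window and no sign of binding.

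In liver, lactating rats had lower levels of most members than pregnant rats. At standard gravity 6 of the 9 members were called lower and none higher, where 0.28% of all probe sets were called lower, by limma with Benjamini-Hochberg adjusted p under 0.05 over all 31042. In hypergravity 5 of 9 were called lower, where 2.01% of all probe sets were. The median difference of the members was -1.40 at standard gravity and -1.25 in hypergravity on the log2 scale, and that of all probe sets was -0.04 and 0.02. In these bulk samples fewer cells of a type and less RNA per cell cannot be told apart.

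Irf7 (gene 293624, chromosome 1, 205796956 to 205800543, GRCr8), which drives the amplifying phase of the type I response, had the smallest adjusted p of the members at standard gravity. Its log2 values at standard gravity were 7.40, 7.43, 7.80, 7.93 and 7.95 in pregnant liver and 5.04, 5.09, 5.66, 5.75 and 5.77 in lactating liver. In hypergravity they were 6.73, 7.16, 7.36, 7.37 and 7.41 in pregnancy and 5.53, 5.85, 6.01, 6.08 and 6.15 in lactation. No lactating array reached a pregnant one at either gravity. The difference was -2.24 (SE 0.18, 4.73-fold lower, limma adjusted p = 2.54e-06) at standard gravity and -1.28 (SE 0.18, 2.44-fold lower, adjusted p = 0.000355) in hypergravity.

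Irf1 (gene 24508, chromosome 10, 38417935 to 38424946), a factor induced mainly by interferon gamma, was not called in liver. Its means were 5.17 ± 0.63 in pregnancy and 5.47 ± 0.45 in lactation (SD, n = 5) at standard gravity, a difference of 0.30 (SE 0.38, limma adjusted p = 0.827). In hypergravity the difference was -0.08 (SE 0.38, adjusted p = 0.946), with a lactating range of 3.98 to 6.37. The groups overlapped at both gravities.

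Of the ISG15 pair, Usp18 was called at both gravities and Isg15 at standard gravity. Usp18 (gene 312688, chromosome 4, 156143770 to 156171292) had values of 8.48 to 9.32 in pregnant and 6.24 to 7.26 in lactating liver at standard gravity, a difference of -2.28 (SE 0.26, 4.84-fold lower, limma adjusted p = 0.000252). In hypergravity it was 8.31 ± 0.34 against 7.06 ± 0.58, and the highest lactating array, at 7.89, lay above the lowest pregnant one, at 7.78 (difference -1.25, SE 0.26, adjusted p = 0.00999). Isg15 (gene 298693, chromosome 5, 172066369 to 172067656) had 7.57 to 8.96 in pregnancy and 6.03 to 7.03 in lactation at standard gravity (difference -1.40, SE 0.27, 2.64-fold lower, adjusted p = 0.0147). Its hypergravity difference of -0.63 (SE 0.27, adjusted p = 0.239) was not called, and 2 lactating arrays, at 7.90 and 8.03, lay within the pregnant range of 7.86 to 8.35. The call at standard gravity ended when the fit held only the 10 arrays compared (adjusted p = 0.0508).

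Among the effectors, Ifit3, Oas1a and Mx1 were called at both gravities. Ifit3 (gene 309526, chromosome 1, 241527326 to 241532469), a tetratricopeptide protein that binds partners among the IFIT family, had values of 4.59 to 5.01 in pregnancy and 3.20 to 3.66 in lactation at standard gravity (difference -1.38, SE 0.15, limma adjusted p = 0.000149). The hypergravity difference was -1.31 (SE 0.15, adjusted p = 6.31e-05). Oas1a (gene 192281, chromosome 12, 41330423 to 41341130), which makes the oligoadenylate signal for RNase L, had 5.64, 5.79, 6.35, 6.44 and 7.40 in pregnancy against 3.68, 3.95, 4.02, 4.26 and 4.65 in lactation. That is a difference of -2.21 at standard gravity (SE 0.26, 4.64-fold lower, adjusted p = 0.000252) and -1.46 in hypergravity (SE 0.26, adjusted p = 0.00293), with no overlap in either. Oas1a belongs to a cluster of near-identical Oas1 genes, and its probe set could respond to more than 1 of them.

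Mx1 (gene 24575, chromosome 11, 50269056 to 50294699), a dynamin-like GTPase that blocks RNA viruses, had 6.89, 7.21, 7.39, 7.52 and 7.70 in pregnancy and 4.62, 5.14, 5.38, 5.55 and 5.79 in lactation at standard gravity. Its difference was -2.05 (SE 0.27, 4.13-fold lower, limma adjusted p = 0.000524) there and -2.14 (SE 0.27, 4.42-fold lower, adjusted p = 0.000107) in hypergravity, where it was the largest of the members. Mx2 (gene 286918, chromosome 11, 50375101 to 50399373), its neighbour and paralogue, was not called by the brighter probe set, at -1.37 (adjusted p = 0.106) and -0.11 (adjusted p = 0.924). The dimmer Mx2 probe set was -1.11 (adjusted p = 0.064) at standard gravity and -1.46 (SE 0.27, adjusted p = 0.00326) in hypergravity, so the 2 probe sets disagree, and the arrays behind this are described below. Mx1 and Mx2 are alike in sequence, and a probe set of either could respond to the other. Without L56H the brighter probe set passed at standard gravity (adjusted p = 0.0379). Ifit2 (gene 294091, chromosome 1, 241515735 to 241521799), which restrains translation of viral RNA, was not called either, at 0.53 (SE 0.29, adjusted p = 0.519) and -0.69 (SE 0.29, adjusted p = 0.226). Its standard gravity values were 5.27 to 5.68 in pregnancy and 5.51 to 6.59 in lactation. Without L217H, at 6.78 the highest lactating array in hypergravity, Ifit2 passed there (adjusted p = 0.0301).

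**Figure D1:**
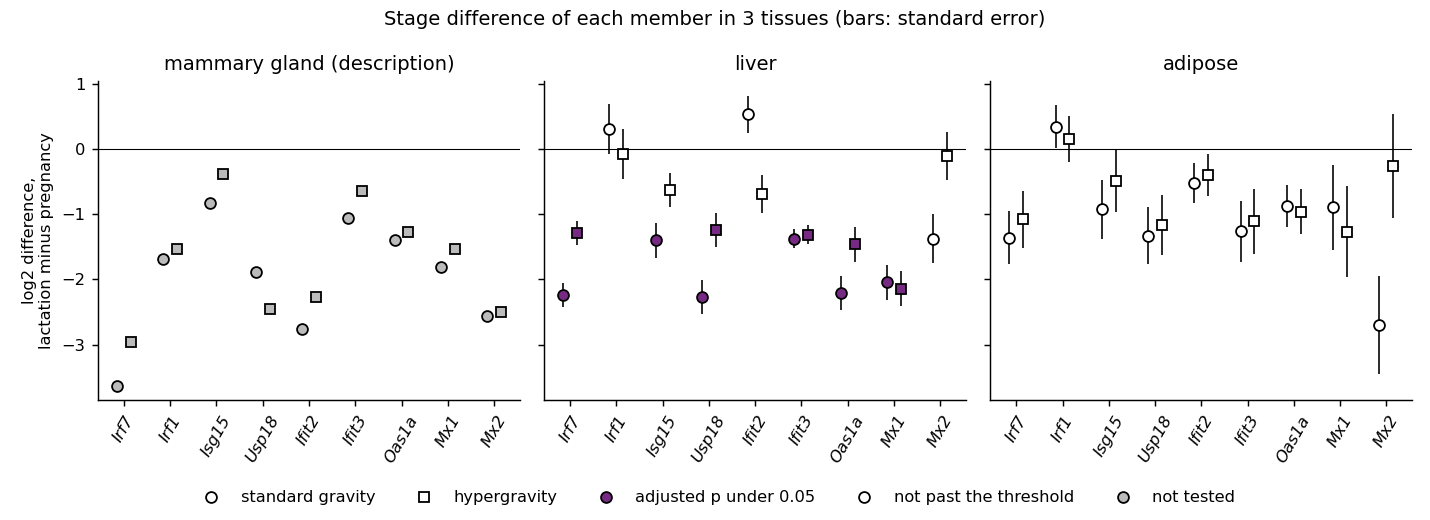
Log2 difference of each member, lactation minus pregnancy, in mammary gland, liver and adipose, at standard gravity (circles) and in hypergravity (squares); bars are standard errors, filled purple points passed an adjusted p of 0.05, open points did not, and grey points were not tested. In liver 6 of 9 members at standard gravity and 5 of 9 in hypergravity are purple, while Irf1 and Ifit2 lie above 0 at standard gravity.

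Counted without a model, every lactating liver array lay under every pregnant one for 7 of 9 members at standard gravity, where 1.57% of all probe sets did so, and for 4 of 9 in hypergravity, where 2.47% did. Markers of resident immune cells were read in the same arrays. Over 13 macrophage markers, none was called in either contrast, the median difference was -0.11 and 0.05, and the mean level of the list ran from 7.95 to 8.36 in pregnant and 8.04 to 8.18 in lactating liver at standard gravity. The 14 lymphocyte markers had no call either, with list means of 3.74 to 4.09 and 3.70 to 4.03. The 5 dendritic cell markers had no call, with medians of -0.20 and -0.08, and 4 of the 5 were below 0 at standard gravity. Their list means there were 4.57 to 5.06 in pregnancy and 4.51 to 4.83 in lactation. The part of immune cells in the members' liver difference was not tested. Leaving out the 2 liver arrays with raised milk protein genes, L55H and L214S, left 6 and 5 members called.

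In mammary gland, whose stage difference entered the choice of the members, all 9 were lower in lactation at both gravities. The median difference was -1.81 at standard gravity and -1.53 in hypergravity, against -0.01 and -0.04 for all probe sets. Every lactating array lay under every pregnant one for 7 of 9 members at standard gravity, where 13.5% of all probe sets did so, and for 6 of 9 in hypergravity, where 8.68% did. Nothing is read from these counts.

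Irf7 had the largest mammary stage difference of the members at both gravities. Its values at standard gravity were 8.65, 8.71, 9.15, 9.45 and 9.48 in pregnant gland and 4.89, 5.52, 5.52, 5.58 and 5.76 in lactating gland, a difference of -3.63 or 12.4-fold. In hypergravity the pregnant arrays read 6.85, 8.54, 8.89, 8.93 and 9.21 and the lactating ones 5.08, 5.26, 5.59 and 6.15, a difference of -2.96. The pregnant array at 6.85 is M56H, which carries hepatocyte markers. Irf1, not called in liver, was -1.69 and -1.53 in mammary gland. Its pregnant ranges were 6.73 to 7.35 and 6.08 to 7.61 and its lactating ranges 5.02 to 5.70 and 5.18 to 5.95.

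Of the ISG15 pair, Usp18 was -1.88 at standard gravity and -2.45 in hypergravity and Isg15 -0.84 and -0.38. Isg15 was the member with the smallest stage difference in this tissue, and its groups overlapped at both gravities (6.69 to 7.58 in pregnancy and 5.72 to 7.10 in lactation at standard gravity). Among the effectors, Ifit2 was -2.76 and -2.27 with a lactating range of only 4.56 to 4.82 at standard gravity. Ifit3 was -1.05 and -0.64, Oas1a -1.39 and -1.27, and Mx1 -1.81 and -1.53. Markers of cell types moved with this contrast at standard gravity. The luminal epithelium list had a median of -1.29, with 5 of 7 lower in every lactating array. The 13 macrophage markers had a median of -0.87, with 7 lower in every lactating array, and list means of 8.09 to 8.49 in pregnancy and 7.02 to 7.41 in lactation. In hypergravity the luminal median was 0.10, the macrophage median was 0.02 and 1 of 13 macrophage markers was lower in every lactating array, while the members' median was -1.53. Lymphocyte markers had a median of 0.01 at standard gravity and -0.83 in hypergravity. The part of these cells in the members' difference was not tested.

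**Figure D2:**
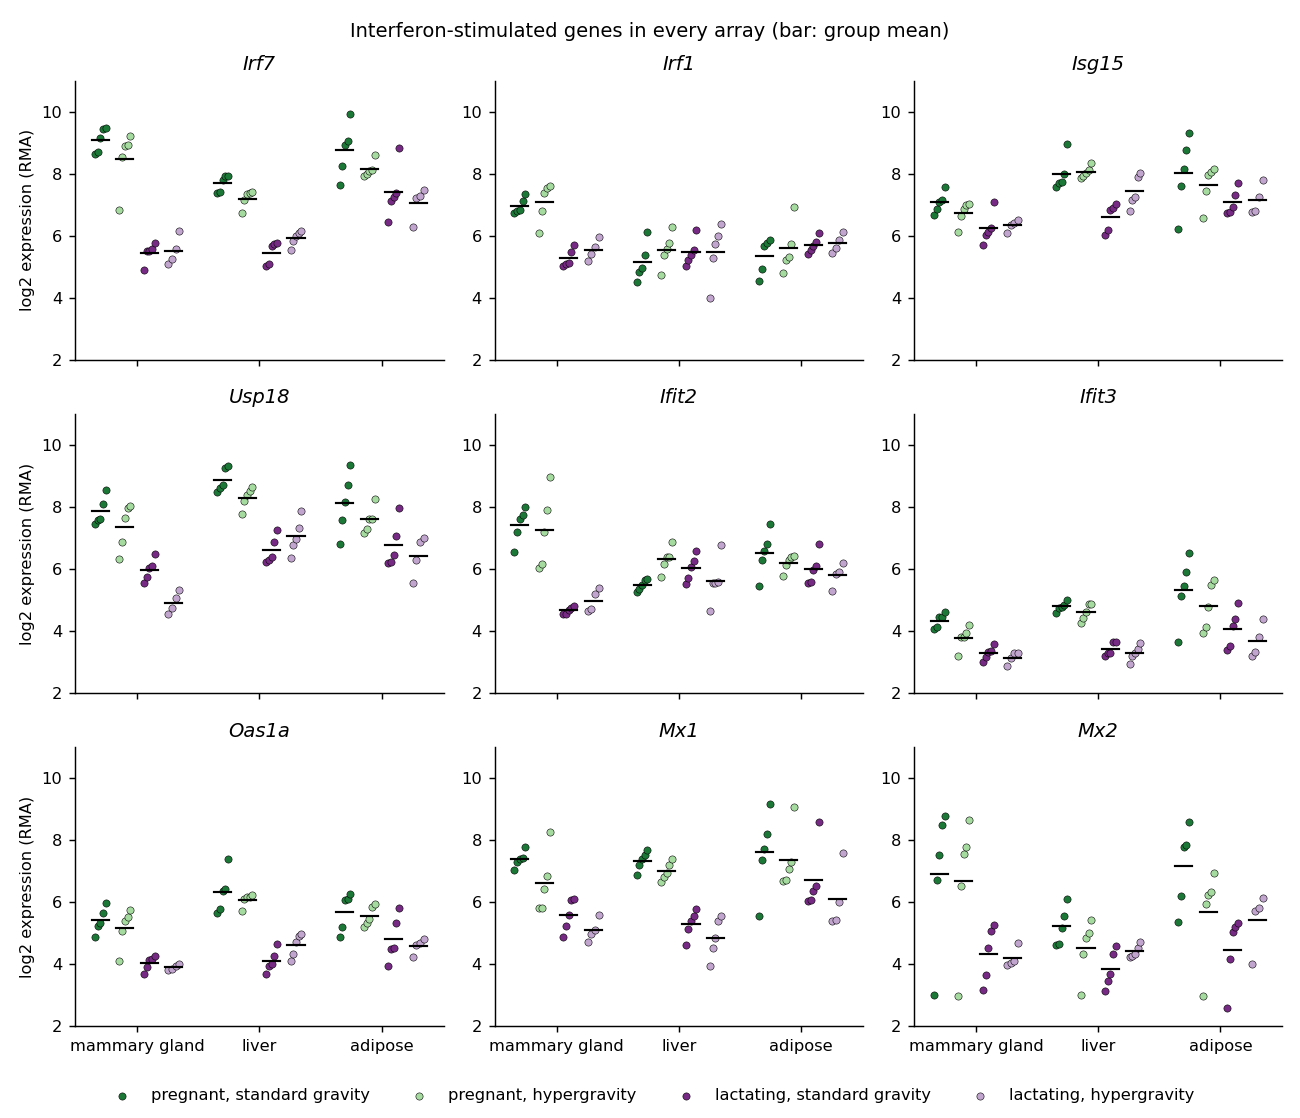
Log2 expression of each member in the 58 arrays used outside the microgravity set, by tissue and group; points are arrays and bars group means. Pregnant arrays (green) lie above lactating arrays (purple) for Irf7, Usp18, Oas1a and Mx1 in mammary gland and liver with few overlaps, and the adipose groups spread more widely.

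In adipose tissue no member was called for stage at either gravity, and 0% of all probe sets were called lower at standard gravity and 0% in hypergravity. By unadjusted p under 0.05 in the same limma fit, 5 members passed at standard gravity and 4 in hypergravity. Of all 31042 probe sets, 1852 and 1141 did. The differences ran downward for 8 of 9 members at both gravities, with medians of -0.92 and -0.96 against -0.01 and -0.02 for all probe sets. Every lactating array lay under every pregnant one for 1 member at standard gravity, where 0.274% of all probe sets did so, and for 3 in hypergravity, where 1.01% did.

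The spread between adipose arrays was wider than in liver. Irf7 read 7.65, 8.25, 8.94, 9.06 and 9.93 in pregnancy and 6.45, 7.12, 7.26, 7.38 and 8.84 in lactation at standard gravity, a difference of -1.36 (SE 0.41, limma adjusted p = 0.673). Its hypergravity difference was -1.08 (SE 0.44, adjusted p = 1). Irf1 was the member above 0, at 0.34 (SE 0.33) and 0.15 (SE 0.35). The lowest pregnant value at standard gravity was A48S, the array with muscle markers, for Irf7 and for each of the other 8 members. The highest lactating value was A219S for 8 of the 9, Mx2 being the exception.

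Usp18 showed the same wide spread in adipose. Its range was 6.81 to 9.36 in pregnancy and 6.21 to 7.97 in lactation at standard gravity (difference -1.33, SE 0.44, limma adjusted p = 0.72), and Isg15 was -0.92 (SE 0.45, adjusted p = 0.841). Among the effectors, Ifit3 was -1.26 (SE 0.47), Mx1 -0.90 (SE 0.66), Oas1a -0.88 (SE 0.32) and Ifit2 -0.53 (SE 0.31), all with adjusted p of 0.757 or more. The SEs of Irf7, Usp18 and Ifit3 were 0.41, 0.44 and 0.47 in adipose and 0.18, 0.26 and 0.15 in liver. A p that missed the threshold does not show that these genes did not differ in adipose. Mx2 had the largest value, -2.70 (SE 0.75, adjusted p = 0.59), by its brighter probe set.

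Between hypergravity and standard gravity 1 member was called in 1 of the 6 contrasts of the 3 tissues, a share near the background of that contrast. In lactating mammary gland, where 9.43% of all probe sets were called, Usp18 was 4.54, 4.73, 5.07 and 5.31 in hypergravity and 5.54, 5.73, 6.03, 6.10 and 6.49 at standard gravity. All hypergravity arrays were below all others (difference -1.07, SE 0.32, 2.09-fold lower, limma adjusted p = 0.0448). The call is at the edge of the threshold: it was lost under 13 of 27 alternative settings, with adjusted p from 0.00365 to 0.526. These were the fit that kept the exchanged arrays and the fits without any 1 of the 4 hypergravity arrays, of M201S, M202S, M214S or M219S, or of the pregnant arrays M44S, M48S, M57S or M59H. In those arrays 4 of 13 macrophage markers were called higher in hypergravity, with list means of 7.64 to 8.29 against 7.02 to 7.41, and 5 of 7 luminal epithelium markers were higher too. Their part in the Usp18 difference was not tested.

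In pregnant mammary gland 0 members were called for gravity by limma, where 0.00322% of all probe sets were. At an unadjusted p under 0.05, 1 member passed, as did 1668 of all 31042 probe sets. The member nearest to a call was Ifit3 at -0.56 (SE 0.17, limma adjusted p = 0.699). In liver 0 were called in pregnancy, where 0.103% of all probe sets were, and 0 in lactation, where 0.406% were. At an unadjusted p under 0.05 by limma, 3 and 2 members passed, beside 2507 and 4238 of all 31042 probe sets. In lactation Isg15 was 6.81 to 8.03 in hypergravity and 6.03 to 7.03 at standard gravity (difference 0.84, SE 0.27, limma adjusted p = 0.191), with overlap. In pregnancy Ifit2 was 5.75 to 6.86 in hypergravity and 5.27 to 5.68 at standard gravity with no overlap (difference 0.83, SE 0.29, adjusted p = 0.403). By its dimmer probe set these groups overlapped, at 4.73 to 5.54 in hypergravity and 4.56 to 5.13 at standard gravity. In adipose 0 members were called in pregnancy, where 0% of all probe sets were, and 0 in lactation, where 0% were. At an unadjusted p under 0.05 by limma, 0 members passed in both, beside 1283 and 709 of all 31042 probe sets.

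Whether the gravity difference itself depended on stage was tested as an interaction. In mammary gland 0 members were called, where 4.03% of all probe sets were, in liver 0, where 0.126% were, and in adipose 0, where 0% were. By unadjusted p under 0.05 the counts of members were 0, 4 and 1 (limma), beside 4564, 3500 and 1055 of all 31042 probe sets. The 4 in liver were Irf7 (0.96, SE 0.26, adjusted p = 0.151), Usp18 (1.03, SE 0.37, adjusted p = 0.312), Ifit2 (-1.23, SE 0.40, adjusted p = 0.267) and Mx2 (1.27, SE 0.53, adjusted p = 0.382, and -0.36 by its dimmer probe set). So the smaller stage differences of Irf7 and Usp18 in hypergravity liver, given above, were not shown to differ from those at standard gravity.

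In the microgravity set no member was called in any of the 3 comparisons, with 0.367% of all probe sets called for microgravity against the flight control, 0.493% against the vivarium control and 0.00322% between the controls. By unadjusted p under 0.05 the counts of members were 1, 2 and 1 (limma), beside 4100, 2951 and 2851 of all 31042 probe sets. The 12 arrays are all from pregnant mammary gland. Irf7 was 9.12, 9.24, 9.25 and 9.62 in microgravity, 9.05, 9.26, 9.55 and 10.05 in the flight control and 9.30, 9.68, 9.70 and 9.82 in the vivarium control. The groups overlapped for every member in every comparison. Irf1 was the member with the smallest p against the flight control, at -0.36 (SE 0.16, adjusted p = 0.37), and Ifit2 against the vivarium control, at -0.45 (SE 0.18, adjusted p = 0.412).

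Mx1 was 7.47, 7.54, 7.58 and 9.22 in the flight control, while the other 8 arrays of the set lay between 7.21 and 8.0. The array at 9.22, FDSB, was also the highest of the 12 for Irf7, Usp18, Irf1 and the brighter Mx2 probe set. It also had the highest lymphocyte marker mean (7.44, against 4.51 to 5.56 on the other 11 arrays) and the highest dendritic cell and neutrophil means (6.53 and 5.17). Their part in these values was not tested. The neutrophil mean includes a probe set annotated Cela2a, which was matched to Elane through the older name Ela2. The brighter Mx2 probe set fell into separate levels in this set: 2.39 and 2.76 in FLTC and FLTD, 2.99 and 3.34 in FDSC and FDSD, and 6.75 to 7.91 in the other 8. The dimmer Mx2 probe set did not split, at 5.86 to 6.27 in microgravity, 5.90 to 6.75 in the flight control and 5.58 to 6.66 in the vivarium control. The vivarium arrays VIVA and VIVC carry muscle markers.

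**Figure D3:**
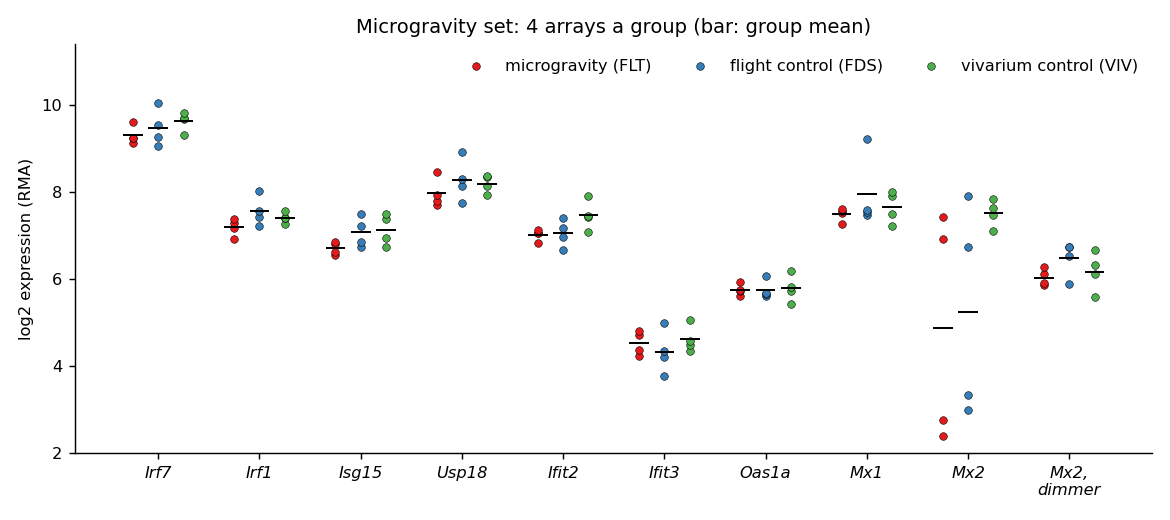
Log2 expression of the 9 members, and of the dimmer Mx2 probe set, in the 12 arrays of the microgravity set; points are arrays and bars group means. The 3 groups overlap for every member, and the brighter Mx2 probe set lies at 2.39 to 3.34 in 4 arrays and at 6.75 to 7.91 in the other 8.

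The same split of the brighter Mx2 probe set followed individual rats across tissues in the other groups. Rat 56 (pregnant, hypergravity) read 2.99 in mammary gland, 3.00 in liver and 2.98 in adipose, and the rat of A219S (lactating, standard gravity) read 3.16, 3.15 and 2.58. Each was the lowest array of its group in each of the 3 tissues. Rat 56 stood apart, as the next values of its group were 6.51, 4.32 and 5.96. The rat of A219S stood apart in adipose, where the next value was 4.16. In mammary gland and liver the next values were 3.65 and 3.47, so no separate level is seen there. Rat 48 (pregnant, standard gravity) did not behave alike in its tissues: its mammary array read 3.00, while liver and adipose read 5.18 and 5.37. By the dimmer probe set rat 56 read 4.61, 5.94 and 6.44, the rat of A219S read 4.12, 4.69 and 5.62, and rat 48 read 5.69, 5.87 and 4.62. The dimmer value was the lowest of its group in M56H and A48S, which carry markers of another tissue, and the highest of its group in A56H and A219S.

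Mx2 enters the counts of correlations below, but no r is given for it. With low values in single rats its SDs are large, at 2.33 in pregnant mammary gland at standard gravity against 0.34 for the dimmer probe set. A stage difference by the brighter probe set therefore rests on which rats fall in each group. In mammary gland it was -2.56 at standard gravity, with pregnant arrays at 3.00, 6.72, 7.52, 8.50 and 8.78 and lactating ones at 3.16, 3.65, 4.54, 5.08 and 5.27. The dimmer probe set was -1.43 there, with 5.23 to 6.07 in pregnancy and 4.02 to 4.31 in lactation. Why the 2 probe sets differ in these rats was not tested.

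**Figure D4:**
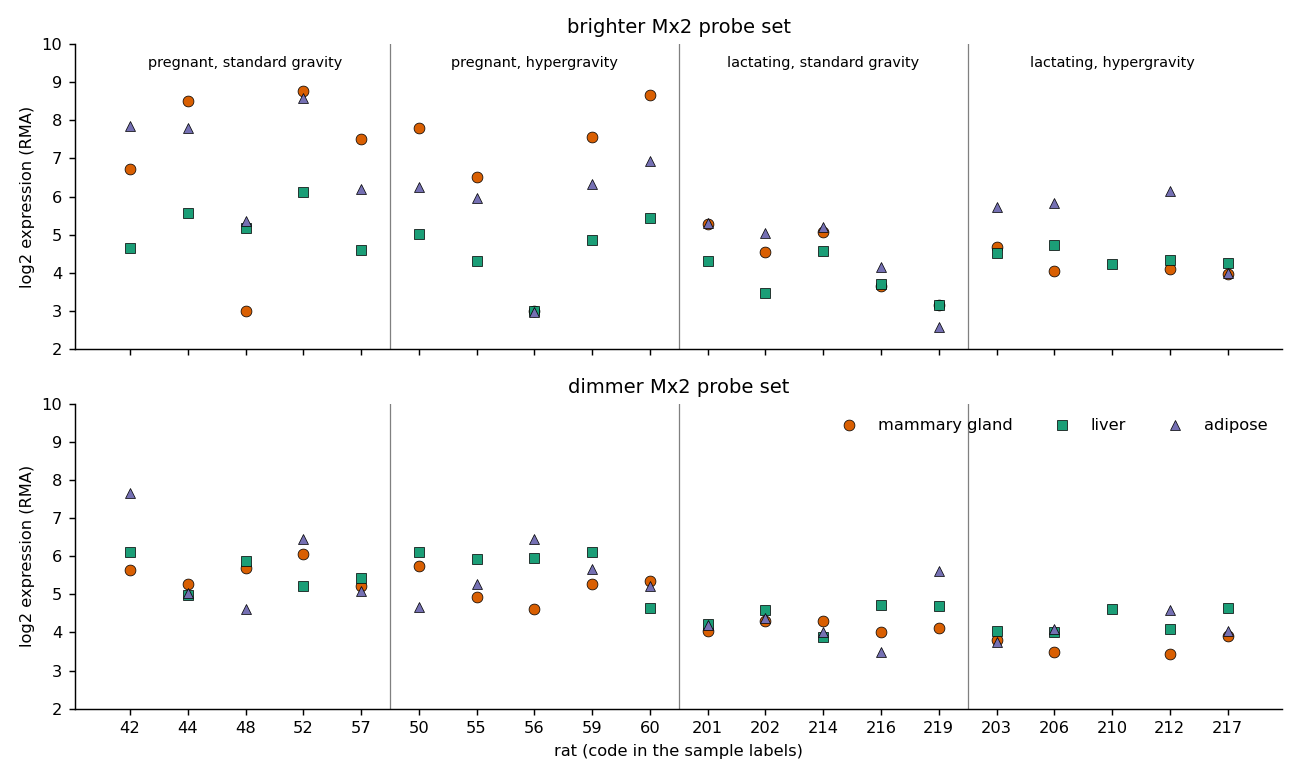
Log2 expression of the 2 Mx2 probe sets in mammary gland, liver and adipose of each of the 20 rats, grouped by stage and gravity; the brighter probe set is above and the dimmer below. The brighter probe set is at or under 3.16 in all 3 tissues of rat 56 and of the rat of A219S, and in the mammary array of rat 48, while the dimmer one lies between 4.12 and 6.44 in these arrays.

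Levels of the members differed between tissues of pregnant rats at standard gravity, by limma over the 58 arrays. Of 9 members, 6 were called between mammary gland and liver, where 50.4% of all probe sets were (7 with the rat as a block, when Mx2 passed at an adjusted p of 0.0417), 4 between mammary gland and adipose, where 41.2% were, and 3 between liver and adipose, where 36% were. These shares are near the background. By its dimmer probe set Mx2 had means of 5.58 in mammary gland and 5.53 in liver. RNA of adipose was extracted by another kit than that of mammary gland and liver, so kit and tissue cannot be told apart there. The transcription factors were higher in mammary gland: Irf1 by 1.80 against liver (SE 0.34, adjusted p = 1.49e-05) and by 1.61 against adipose (SE 0.34, adjusted p = 0.000116), and Irf7 by 1.38 against liver (SE 0.34, adjusted p = 0.000528). Irf7 was 0.32 above adipose (SE 0.34, adjusted p = 0.499), which was not called.

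The ISG15 pair ran the other way. Usp18 was -1.02 (SE 0.36, limma adjusted p = 0.0141) and Isg15 -0.92 (SE 0.34, adjusted p = 0.023) in mammary gland against liver. Oas1a was -0.90 against liver (SE 0.29, adjusted p = 0.00819), while Ifit2 was 1.94 above it (SE 0.36, adjusted p = 8.49e-06). By its dimmer probe set Ifit2 was 0.72 above liver. Mx1 was within 0.27 in all 3 comparisons and not called. Against adipose, Ifit3 was -1.0 (SE 0.31, adjusted p = 0.00694), Isg15 -0.93 (SE 0.34, adjusted p = 0.0248) and Ifit2 0.90 (SE 0.36, adjusted p = 0.0381), the last of which was lost under 11 of 24 alternative settings, among them the fits without rat 44, 48 or 57 in either tissue and the fit without the arrays with markers of another tissue (0.69, adjusted p = 0.155), and was 0.07 by its dimmer probe set. Between liver and adipose, Irf7 was -1.07 (adjusted p = 0.0102), Ifit2 -1.04 (adjusted p = 0.0185) and Mx2 -1.94 (adjusted p = 0.0486). The Mx2 call was lost under 13 of 24 settings. By the dimmer probe sets Ifit2 was -0.65 and Mx2 only -0.24 (limma adjusted p = 0.644) between these tissues. Ifit3, at -0.54 (adjusted p = 0.172), passed there without the arrays with markers of another tissue (-0.96, adjusted p = 0.00652). Other calls rested on single arrays: Isg15 was lost without M57S (adjusted p = 0.0618) or L42S (0.112) against liver and without M48S, M57S, A42S or A52S (0.0527 to 0.164) against adipose. Oas1a was lost without L52S (0.0663), Ifit3 without A42S (0.0623), Irf7 between liver and adipose without A42S (0.0704) and Ifit2 there without A52S (0.0896). The Mx2 call was lost without M42S, M57S, any of 4 liver arrays (L42S, L44S, L48S, L57S) or A42S, A44S or A52S.

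Over the 12 groups of the 3 tissues the order of the mean levels ran without gaps for most members. Irf7 was highest in pregnant mammary gland at standard gravity (9.09 ± 0.39) and lowest in lactating mammary gland at standard gravity (5.45 ± 0.33), and 10 of its 11 pairs of neighbours in the order overlapped in their arrays. The gap lay between lactating adipose and lactating liver in hypergravity, 7.07 ± 0.53 and 5.92 ± 0.25. Usp18 was highest in pregnant liver at standard gravity (8.88 ± 0.39) and lowest in lactating mammary gland in hypergravity (4.91 ± 0.34), with 1 gap, between the lactating mammary groups. Oas1a had the same highest and lowest groups (6.32 ± 0.69 and 3.90 ± 0.08). Isg15 was highest in pregnant liver in hypergravity (8.07 ± 0.19) and lowest in lactating mammary gland at standard gravity (6.25 ± 0.52). Ifit2, Ifit3, Oas1a, Mx1, Mx2 and Isg15 had no gap between neighbours, and Irf1 had 1.

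Within a group, arrays high for Irf7 tended to be high for other members in adipose, and no such relation passed in liver. Deviations of each array from its group mean were compared for Irf7 and each of the other 8 members in 3 tissues, 24 relations, with p from 100000 permutations of arrays within their group, adjusted over the 24. Of these, 9 passed an adjusted p of 0.05: 7 of 8 in adipose, 2 of 8 in mammary gland and 0 of 8 in liver, where none passed an unadjusted p of 0.05. The adipose relation that did not pass was that of Mx2. That one tissue passes and another does not was not tested as a difference.

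In adipose (n = 19) Pearson's r with Irf7 was 0.83 for Mx1 (rho 0.71, permutation adjusted p = 0.00192; rho adjusted p = 0.0313), 0.82 for Oas1a (rho 0.71), 0.79 for Usp18 (rho 0.70) and 0.74 for both Ifit3 (rho 0.66) and Isg15 (rho 0.68). Without the 2 arrays farthest from the median of Irf7, these were 0.73, 0.77, 0.62, 0.66 and 0.67. Within each of the 4 adipose groups alone, r was above 0 for all 5 of these genes, from 0.20 for Isg15 to 0.98 for Oas1a. Without the arrays that carry markers of another tissue, 5 of the 24 relations passed, all in adipose and with these 5 genes (r of 0.65 to 0.79, n = 16). The adipose arrays highest for Irf7 in 3 of the 4 groups also had the highest macrophage and dendritic cell markers of their group: A42S (9.62 and 6.47), A56H (9.67 and 6.48) and A219S (9.64 and 6.08). Lymphocyte means were 5.53 on A42S and 6.37 on A56H, against an adipose median of 3.82. In an alternative chosen after these values were seen, arrays with a macrophage, lymphocyte or dendritic cell mean over 1 above the tissue median were left out (A42S, A56H, M60H and M219S). Then 7 relations passed, 5 of them in adipose (r of 0.83 for Oas1a, 0.81 for Mx1, 0.70 for Ifit2, 0.66 for Ifit3 and 0.64 for Isg15, n = 17), and those of Usp18 (r = 0.70, permutation adjusted p = 0.0533) and Irf1 in adipose did not. The part of immune cells in what remains was not tested. In mammary gland the relations with Usp18 (r = 0.70, rho 0.62, permutation adjusted p = 0.0264) and Irf1 (r = 0.75, rho 0.62, adjusted p = 0.0264) passed, and fell to r of 0.43 and 0.46 without the 2 farthest arrays, 1 of which is M56H. In liver the highest r was 0.29, for Usp18 (rho 0.25, permutation adjusted p = 0.391). Spearman's rho passed for 6 of the 24 relations, all in adipose.

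**Figure D5:**
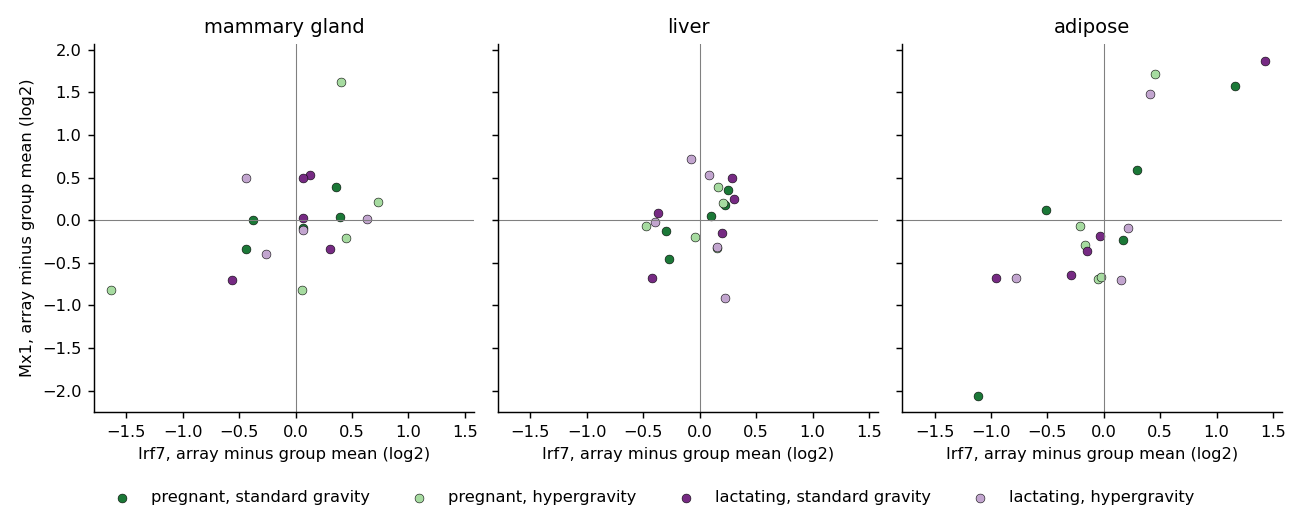
Deviation of each array from its group mean for Irf7 (horizontal) and Mx1 (vertical), both in log2, in mammary gland, liver and adipose; points are arrays, coloured by group. The adipose points rise together (r = 0.83, n = 19). The liver points lie closer to the centre, and their relation did not pass (r = 0.27, n = 20).

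For most members no relation between tissues of the same rat passed the test. Within-group deviations were compared between tissues of the same rat (n = 19) for 9 members and 3 pairs of tissues, 27 relations adjusted together. Without Mx2, which has low values in single rats as described above, 24 remain, and r ran from -0.65 to 0.59 with a median of -0.06. Of the 27, 3 passed a permutation adjusted p of 0.05, 2 of them for Mx2. The third is Isg15 between mammary gland and liver (r = 0.59, rho 0.60, permutation adjusted p = 0.0498, r above 0 in 4 of 4 groups), where r was 0.70 without the 2 farthest arrays. It did not pass without the arrays that carry markers of another tissue (r = 0.63, n = 13, permutation adjusted p = 0.0892) or without those with raised immune markers (r = 0.55, n = 17, permutation adjusted p = 0.304), and 0 of the 27 passed in either case. Irf7 gave 0.46 between mammary gland and liver, -0.21 between mammary gland and adipose and -0.05 between liver and adipose, none of which passed.

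The other genes of the pathway were read from 8 lists of 101 entries, of which 77 have a probe set. In lactating against pregnant liver at standard gravity, 4 of 29 other interferon-stimulated genes were called lower, against 0.28% of all probe sets, and none higher, with a list median of -0.32: the oligoadenylate synthetase relative Oasl (-1.62, SE 0.30, limma adjusted p = 0.0112), the nucleotide kinase Cmpk2 (-1.03, adjusted p = 0.01), Ifi27l2b (-0.79, adjusted p = 0.000753) and Ifi27 (-0.68, adjusted p = 0.0016). Of 8 JAK-STAT genes 1 was called, Irf9, the DNA-binding part of the type I factor (-0.93, SE 0.18, adjusted p = 0.0164). None of the 6 receptors, 3 ligands, 4 other interferon regulatory factors, 12 sensors and adaptors, 4 genes of ISG15 conjugation or 11 genes of the interferon gamma response was called. Of the last list, the chemokine Cxcl9 had the smallest p (-1.29, adjusted p = 0.0589).

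In hypergravity liver 5 of the 29 other interferon-stimulated genes were called lower, against 2.01% of all probe sets, and none higher, among them Oasl (-1.24, adjusted p = 0.0227), Cmpk2 (-1.10, adjusted p = 0.00152), the helicase Ddx60 (-1.04, adjusted p = 0.0331) and Ifi27 (-0.55, adjusted p = 0.00288), with a list median of -0.32 (limma). The receptor chain Ifngr2 (-0.89, adjusted p = 0.0153) and the adaptor Ticam1 (-0.77, adjusted p = 0.0461) were lower as well, and Irf9 was not called (-0.63, adjusted p = 0.061). In adipose no gene of the 8 lists was called for stage at either gravity, and the 29 other interferon-stimulated genes had medians of -0.17 and -0.32. In mammary gland, as a description, that list had medians of -0.85 at standard gravity and -0.37 in hypergravity, with 18 and 6 of 29 lower in every lactating array, against 13.5% and 8.68% of all probe sets.

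In lactating mammary gland, where 1 member was called for gravity, 4 of 6 interferon receptor genes were called higher in hypergravity, against 9.43% of all probe sets called in either direction, on the same arrays whose macrophage and luminal epithelium markers were higher. These were the interferon lambda receptor Ifnlr1 (1.57, SE 0.25, limma adjusted p = 0.000467), Ifngr2 (1.15, adjusted p = 0.0224), Ifnar1 (1.06, adjusted p = 0.0034) and Il10rb (0.83, adjusted p = 0.0066). Of 8 JAK-STAT genes 2 were called higher, the kinases Jak2 (1.32, SE 0.17, adjusted p = 5.28e-05) and Jak1 (0.65, adjusted p = 0.0191), while 4 of the 8 were below 0 and the list median was -0.11. Other interferon-stimulated genes went both ways: 6 of 29 were called higher, among them Rtp4 (1.19), Ifitm1 (0.94) and Ifitm3 (0.93), and 2 lower, the exonuclease Isg20 at -1.70 (SE 0.23, adjusted p = 0.000102) being the larger. Cxcl9 (-0.96, adjusted p = 0.00581) and the kinase Tbk1 (-0.87, adjusted p = 0.0125) were lower. They were the only calls among 11 interferon gamma response genes and 12 sensors and adaptors, shares near the 9.43% of all probe sets. For Ifnlr1, Jak2, Isg20 and Ifitm3 the gravity difference depended on stage by the interaction test (adjusted p of 0.0123, 0.00193, 0.00343 and 0.0136). They were the only calls there: 1 of 6 receptors, 1 of 8 JAK-STAT genes and, of 29 other interferon-stimulated genes, 1 higher and 1 lower. Of all probe sets 4.03% were called in that test, so these few calls are not read as a trait of the lists. No gene of the 8 lists was called for gravity in pregnant mammary gland, liver or adipose, or in the microgravity set.

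The 8 genes whose within-group deviations were most like the mean deviation of the members, by Pearson's r averaged over the 3 tissues (19, 20 and 19 arrays) and with no test, were Mfsd9, Ifgga2l1, Igtp, Ifi44l, Eif2ak2, Rig1, Casp1 and Ifi44. Their mean r ran from 0.70 to 0.75. For Mfsd9 it was 0.84 in mammary gland, 0.68 in liver and 0.75 in adipose, and for Igtp 0.82, 0.55 and 0.85. The points share arrays with the members, so anything that shifts a whole array enters both sides. The mean deviation was unscaled and included the brighter Mx2 probe set. With its low values in single rats, described above, Mx2 counts for more in it than a member with a small spread. The likeness without Mx2 was not tested. Likeness within groups did not go with the stage difference in liver: that of Mfsd9 was -0.05 at standard gravity, that of Igtp 0.47 and that of Eif2ak2 -0.69, against the members' median of -1.40.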

How the data were processed

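RNA of 72 arrays was amplified from 25 ng of total RNA with the NuGEN Ovation Biotin System, per the labels' protocols. The values the authors deposited are log2 expression from RMA, per the submitters' processing notes, and were used without further normalisation; the RMA version is not given in the sources used here. Of 31042 probe sets, 20826 carry 1 gene symbol in the platform annotation, 436 several and 9780 none. Members and lists were chosen with earlier results of these data known.

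The 58 arrays were fitted per tissue, with group means and no covariate, by lmFit and eBayes in limma 3.58.1 (R 4.3.3), two-sided, with Benjamini-Hochberg adjustment over all 31042 probe sets. Contrasts between tissues used 1 fit over the 58 arrays, and the microgravity set its own. The labels do not name separate animals beyond the codes, so p-values measure the spread between these arrays. Permutation tests used numpy 2.4.6 with 100000 resamples (smallest p 1e-05), and scipy 1.17.1 gave the ranks for Spearman's rho. The fit was tested on simulated data. Named genes were the 9 members, at most 4 called genes for each list and contrast by size (with none called, at most 1 by p), and the 8 genes most like the members. Lists were described by counts and medians only.

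Arrays of the same rat code come from the same animal by the titles: their deviations correlated with a median of 0.13 (mammary gland and liver), 0.13 (mammary gland and adipose) and 0.15 (liver and adipose), against -0.03, -0.04 and -0.03 for different rats. The letters of the microgravity set gave -0.15 to 0.08, so they pair nothing. The alternatives were array weights, a trended robust prior, only the groups compared, quantile normalisation, a filter on dim probe sets, the exchanged or marker-carrying arrays, the dimmer probe set, the replicate block, leaving out each array and, for the correlations, leaving out arrays with raised immune markers. Scan or hybridisation batches are not given in the sources used here.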

Additional observations from a re-analysis of the deposited data

Results flagged for a closer look

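Of 135 pairs of a member and a group of 4 or 5 arrays, 8 held an array that lies far from the others by Dixon's criterion. Chance gives about 1 in 20, so the count of 8 is near what chance gives, and the arrays are only listed. For Irf7 these were M216S at 4.89 (the others of its group 5.52 to 5.76), M56H at 6.85 (8.54 to 9.21) and A56H at 8.61 (7.94 to 8.13). For Mx1 they were A219S at 8.58 (6.03 to 6.52), A56H at 9.09 (6.69 to 7.31) and FDSB at 9.22 (7.47 to 7.58). The last 2 were Oas1a in FDSA at 6.08 (5.62 to 5.68) and Mx2 in A56H at 2.98 (5.96 to 6.93). Rat 56 accounts for 4 of the 8, with Irf7 low in its mammary array, which carries hepatocyte markers, and Irf7 and Mx1 high in its adipose array, whose lymphocyte (6.37), macrophage (9.67) and dendritic cell (6.48) marker means are the highest of its group. FDSB has the highest lymphocyte mean of the microgravity set (7.44). What sets these arrays apart was not tested.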

How the results depend on the processing

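The count of members called in liver was 5 to 7 at standard gravity (reported 6) and 5 to 6 in hypergravity (reported 5) under all alternatives run. The counts of 0 stayed 0 under every alternative. In lactating mammary gland the gravity count of 1 became 0 with the exchanged arrays kept and was 0 to 1 when single arrays were left out. Between mammary gland and adipose the count of 4 became 1 with only the groups compared and was 2 to 4 when single arrays were left out. Between liver and adipose the count of 3 was 1 to 4 when single arrays were left out, 1 without A52S. The median mammary stage difference at standard gravity was -1.43 by the dimmer probe sets (reported -1.81). Without the arrays that carry markers of another tissue, 0 relations between tissues (reported 3) and 5 relations with Irf7 (reported 9) passed, and without the 2 farthest arrays 4 of the latter did. With the replicate block for the rat the tissue counts were 7, 4 and 3 (without it 6, 4 and 3), and with the letter of the microgravity set as the replicate block they stayed 0, 0 and 0. Without the arrays with raised immune markers, chosen after the data were seen, 0 relations between tissues and 7 with Irf7 passed. No called value changed sign. Values that were not called did in places, among them those of Mx2: its gravity difference in pregnant mammary gland ran from -1.18 to 1.14, its liver interaction of 1.27 was -0.36 at the lowest, its hypergravity liver stage difference ran from -1.46 to 0.12 and its difference between the microgravity controls, -2.27, was 0.30 at the highest. The cause of these shifts was not tested. Groups of 4 or 5 arrays limit what can be called, most of all in adipose, and a gene with 1 or 2 probe sets has no check against cross-hybridisation.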
